A study of Brassica napus with 355 samples.

Results

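Chromosomes A03 and C3 are homoeologous chromosomes of Brassica napus, inherited from B. rapa (BnA) and B. oleracea (BnC). They correspond to each other over part of their length, which is described below. Their genes were chosen by identifier alone, BraA03g for A03 and Bo3g for C3, and ordered by the number in the identifier. A03 had 6032 and C3 had 8490 of the 106126 identifiers in the count tables, of which 3209 and 3942 had a mean of at least 1 CPM (counts scaled to the same library total) over all libraries and are called expressed here. Gene positions are given as ranks along the chromosome, since the identifiers were not placed on genome coordinates here.

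Rapeseed is an allotetraploid that carries the complete chromosome sets of a turnip-like and a cabbage-like parent. In most regions a gene of the A genome has a counterpart, a homoeolog, at the matching place of the C genome, and both copies are usually transcribed. Homoeologous chromosomes of this species are known to recombine with each other at times, so that accessions can differ in how many copies of each version they carry. The data here are RNA counts, and DNA copy number was not measured.

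Leaf RNA was sequenced from 16 accessions grown water-limited (WL, 20% of soil water capacity) or well-watered (WW, 100%), at 4 times of the day, which are given as hours after dawn (ZT): ZT1, ZT7, ZT13 and ZT19. The genotypes, spelled as in the labels, were Aburamasari (Ab), Alaska_BnASSYST_004 (Al), Aviso (Av), Bristol_BnASSYST-031 (Br), Campari_BnASSYST-075 (Ca), Darmor (Da), DH12075 (DH12), DH2075 (DH20), Gruener Schnittrohl_BnASSYST-219 (Gr), Musette_BnASSYST-056 (Mu), NK_Nemax_BnASSYST-084 (Ne), Quantum NE011 (Qu), Sensaton_NZ_BnASSYST-414 (Se), Stellar DH JZ111 (St), Yudal_BnASSYST-241 (Yu) and Zephir_BnASSYST-068 (Ze). The 354 libraries, 172 WL and 182 WW, fell into groups of accession, treatment and time point, with 3 libraries in 101 groups, 2 in 24 and 1 in 3. According to the methods of the study, the youngest leaf of each plant was sampled, with 3 replicates per treatment and time point. The labels number the replicates without naming the plants, so they do not say whether a plant gave more than 1 library. The p-values of tests within an accession, and of an accession against the others, measure the spread between these libraries. Those of tests over accessions measure the spread between accession values. The files pair no identifier with a gene name, so the leaf label was not checked against marker genes and genes are named by identifier.

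The median library held 18332048 counts, the shallowest 3216762 and the deepest 35177558. A03 took 5.17 to 7.61% of the counts of a library and C3 took 5.31 to 10.9%. In bulk samples, fewer cells of a type and less RNA per cell cannot be told apart. In 46 libraries the expressed genes, as differences from the accession mean, were more like another time point of the accession than the labelled one. WL and WW libraries were pooled for this, so treatment can enter it. The mean WL effects by time point are therefore also given without these libraries. A search of all libraries for stretches of at least 100 genes that differed from the other libraries of their accession by a median log2 of 0.4 or more found 5 libraries. Av under WL at ZT19, replicate 1, had C3 counts lower by a median log2 of -0.70 from Bo3g001020 to Bo3g015510 and of -0.69 from Bo3g018930 to the end. Ca under WW at ZT19, replicate 1, was low on A03 from BraA03g01030R to BraA03g08080R (-0.71), and Da under WW at ZT19, replicate 1, on C3 from Bo3g132570 to the end (-0.63). Se under WW at ZT13, replicate 2, was high on C3 from Bo3g015120 to the end (0.45), and St under WL at ZT7, replicate 2, on C3 from Bo3g001020 to Bo3g008860 (1.42). In the other libraries the largest difference over such a length was 0.33. The A03 shares of the first stretch and the mean WL effects on the whole-chromosome balance are also given without them. Other ranges over libraries include them unless stated.

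To see which parts of A03 and C3 correspond, each A gene was matched with the C gene whose WW diel profiles over accessions were most like its own, keeping reciprocal best matches. Of 998 A03 genes with a match, 645 had it on C3, and 592 of these lay along a single line of ranks (collinear pairs), from rank 11 to rank 4114 on A03 and from rank 28 to rank 5096 on C3. The pairs thus kept the same order on both chromosomes over this length. In successive blocks of 1000 A03 genes, the first 4 blocks had 82.7 to 86.7% of their matches on C3. In the fifth and sixth block, 57.8 and 78.2% of the matches were on C7, and the last part of A03 was not compared with C3 pair by pair. The blocks of C3 beyond the line matched A06 (65.7% in the sixth block) and A08 (75.4 and 90.6% in the eighth and ninth).

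**Figure D1:**
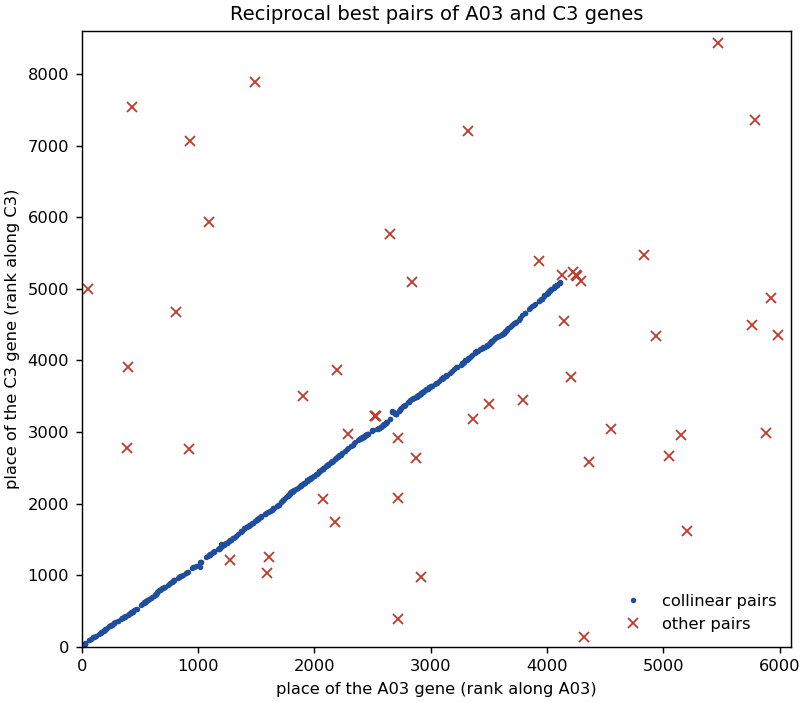
Rank of the A03 gene (horizontal axis) and of the C3 gene (vertical axis) in each of 645 reciprocal best pairs. Blue points are the 592 collinear pairs, which form a line that ends at rank 4114 of A03, and red crosses are the other pairs.

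Along windows of 50 genes, Se and St stood apart at the start of both chromosomes: C3 was low and A03 was high. Counts summed per window were compared between each accession and the mean of the other 15 (edgeR quasi-likelihood test over the windows of all 19 chromosomes, Benjamini-Hochberg adjusted p of 0.01 or less), and a window was called low at a log2 of -1 or less and high at 0.5 or more. In Se, 17 of the 170 C3 windows were low, against a background of 4.01% low windows over the 19 chromosomes of Se. In St, 12 C3 windows were low, with a background of 3.09%. The other 14 accessions had 0 to 2 low C3 windows each, with a background of 1.68% over all 16 accessions, and 2 low A03 windows were called in all, 1 in Ab (background 1.54%) and 1 in Yu (1.34%). On A03, 19 of 121 windows were high in Se (background 7.51%) and 10 in St (background 4.17%), with a background of 4.42% over all 16 accessions.

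The called windows of Se and St lay next to each other. The longest run was C3 windows 1 to 12 in St, with a mean log2 of -1.98. In Se the C3 windows 1 to 6 (mean -2.35) and 8 to 17 (mean -1.96) were low, and the A03 windows 5 to 16 (mean 0.91) and 1 to 3 (mean 0.78) were high. In St the A03 windows 1 to 5 (mean 0.89) and 7 to 10 (mean 0.64) were high. Ca had 15 high C3 windows and 9 high A03 windows and Ab had 6 and 8, of which the longest run was C3 windows 4 to 7 in Ca (mean 0.56). The other runs of Ca were pairs of adjacent windows, C3 windows 9 and 10, 24 and 25, and 73 and 74, and A03 windows 22 and 23. C3 windows 4 to 7, 9 and 10 lie where Se and St were low, which raises the others by the construction of the measure. Over the C3 genes low in both, gene medians were 0.238 to 0.415 in the other 14 accessions, with 0.415 in Ca. C3 windows 24 and 25 overlap genes that were low in Av, Br and Ze, described below. The background of high windows was 6.84% in Ca and 8.69% in Ab.

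**Figure D2:**
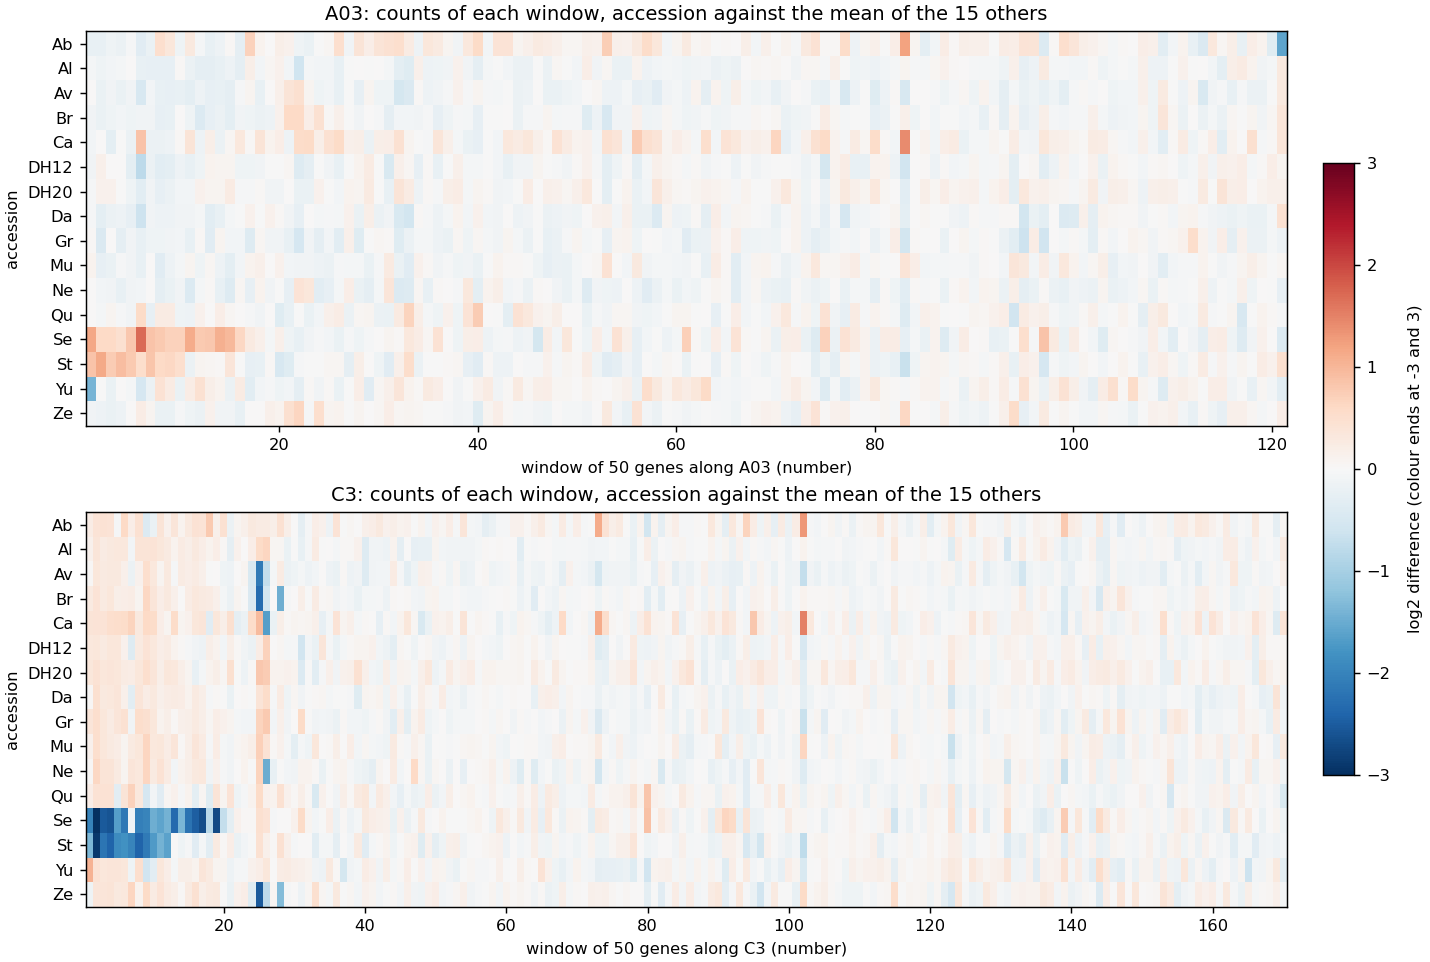
Log2 difference of the counts of each window of 50 genes between an accession (row) and the mean of the 15 others, along A03 (121 windows, top) and C3 (170 windows, bottom). Red is higher and blue is lower, and the Se and St rows are blue over the first windows of C3 and red over the first windows of A03.

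The A to C balance, log2 of A03 counts over the C3 counts at the same relative rank, was shifted in the most bins in Se and St. Relative rank runs over the whole of both chromosomes and so departs from the collinear line. Past the line, the A03 and C3 genes compared mostly matched other chromosomes. It was shifted towards A03 (limma, adjusted p of 0.01 or less and a log2 of at least 1) in 17 of 121 bins in Se and in 8 in St, with backgrounds over the bins of A01-C1, A02-C2 and A03-C3 of 10.9% and 10.2%. The share of bins in Se thus lay above its background and that in St below it, so the count alone does not set St apart. Every other accession had 0 to 2 such bins (background 6.65% over all 16). Shifts towards C3 were called in 1 bin each of Ab (background 3.87%) and Yu (4.58%), with a background of 3.19% over all 16. When C3 was represented by the partners of collinear pairs, in 82 bins, the balance was shifted towards A03 in 16 bins in Se and in 9 in St (background 12.8% for these accessions together), and the share in St was again below the background.

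Gene by gene, the low and high stretches had sharp limits, which are given as a description since they were found in the same values. In Se, the 531 expressed C3 genes from Bo3g001020 (rank 3) to Bo3g013820 (rank 986) were lower than in the other accessions by a median log2 of -2.06, 444 of them by at least 1 and 119 by at least 3. The next expressed gene was Bo3g013840. On A03, the 494 expressed genes from BraA03g01030R (rank 3) to BraA03g09500R (rank 850) were higher in Se by a median of 0.81, and 357 of them by at least 0.5. In St, the low C3 stretch held 299 expressed genes and ended at Bo3g008860 (rank 589), with a median of -1.93. The high A03 stretch of St held 304 expressed genes and ended at BraA03g06170R (rank 517), with a median of 0.74.

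The A03 and C3 stretches of Se held 111 collinear pairs with each other and those of St held 62. Pairs with a gene inside a stretch and its partner outside were not counted, so how closely the limits match was not tested. Of the 111 pairs in Se, the C3 copy was lower in 105, the A03 copy was higher in 95, and both held in 89. Of the 62 pairs in St, these counts were 60, 55 and 53. There was no pair in either accession in which the C3 copy was not lower and the A03 copy not higher. The sum of both copies differed little in the median, by a log2 of -0.22 in Se and -0.14 in St. Single pairs varied more. The sum lay within a log2 of 0.5 of the other accessions in 67 of the 111 pairs in Se and in 38 of the 62 in St.

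The share of A03 in the A03 and C3 counts separated the libraries completely in these stretches. Stretches and accessions were chosen on these same values, so the separation is a description and not a test. Over the first stretch, shared by both accessions, A03 took 77.7, 85.5 and 87.3% of the counts in Se libraries (lowest, median, highest of 22) and 74.2, 87.0 and 88.1% in St libraries (19), against 31.9, 45.1 and 58.0% in the 313 libraries of the other 14 accessions. The groups did not overlap. Without the 5 libraries that stood apart, the lowest share in St was 80.6% and the highest in the other accessions was 53.3%. In the adjoining stretch, from Bo3g008880 to Bo3g013820 on C3, A03 took 79.7, 83.0 and 85.2% in Se, against 35.9, 41.2 and 52.5% in the other 15 accessions. St had 44.3% there in the median, so it resembled the other accessions outside its own stretch. The summed level of A03 and C3 genes in the first stretch differed from the other accessions by a log2 of 0.00144 in Se and -0.08 in St.

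**Figure D3:**
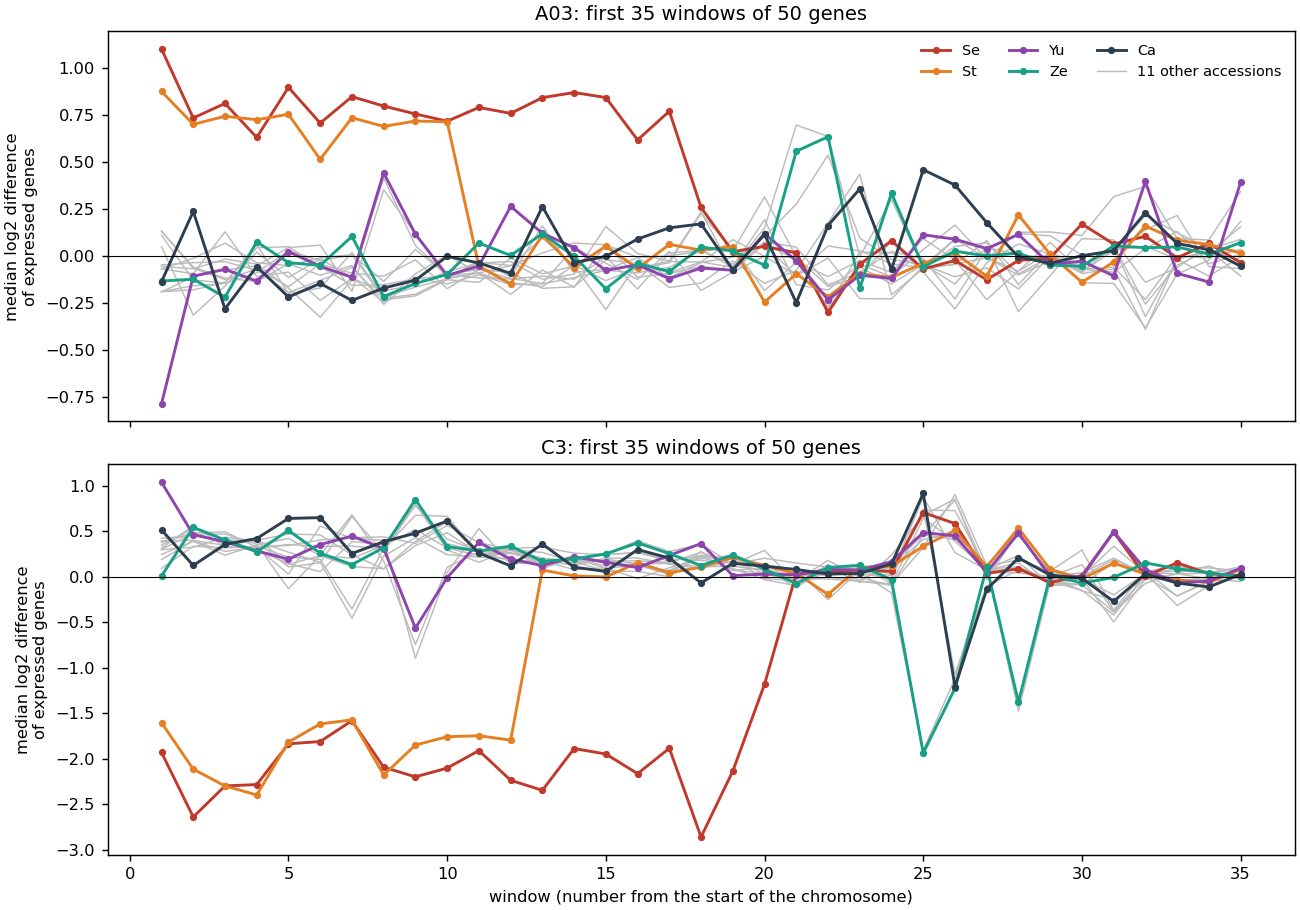
Median log2 difference of the expressed genes of each of the first 35 windows of 50 genes between an accession and the mean of the others, on A03 (top) and C3 (bottom). Coloured lines are Se, St, Yu, Ze and Ca, and grey lines are the 11 other accessions. Se and St lie near -2 on C3 over their stretches, and return to 0 after them.

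A minority of the C3 genes were lower still. Over all C3 genes, 126 of 3942 were lower by a log2 of 3 or more in Se (3.20%) and 56 in St (1.42%), against 1.39% and 0.71% of all 45791 expressed genes on the 19 chromosomes. Among genes this low, Bo3g001530 had the highest level in other accessions within the low C3 run of St and within C3 windows 1 to 6 of Se. It had 0.27, 1.48 and 7.79 CPM in Se libraries (lowest, median, highest) and 0.22, 0.76 and 65.4 CPM in St libraries. The mean of the other 14 accessions ranged from 85.8 to 172 CPM, so only the highest St library came near it. Bo3g005470 had a median of 2.80 CPM in Se and 0.37 CPM in St, while the other 14 accessions had means of 1.86 to 111 CPM, and so were not all higher. Bo3g010600, which lies in the stretch of Se alone, had a median of 0 CPM in Se and means of 0.18 to 112 CPM in the others.

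High A03 genes of Se included BraA03g06460R, at 115, 616 and 1670 CPM (lowest, median, highest library), against means of 118 to 387 CPM in the 14 accessions other than Se and St. It is in a collinear pair with Bo3g009280, which had 51.6 CPM in Se and a median of 283 CPM in those 14. BraA03g05560R had 36.6, 366 and 693 CPM in Se libraries, against means of 131 to 235 CPM in the 14 accessions. BraA03g03840R had 51.8, 353 and 1670 CPM in Se, against means of 19.5 to 334 CPM. The Se libraries thus overlapped these means for all 3 genes. Exceptions to the direction existed: Bo3g009320 was low in Se, at 0.28, 1.44 and 70.9 CPM against 63.8 to 531 CPM, and its A03 partner BraA03g06500R was lower as well, at 18.3 CPM against a median of 71.0 CPM.

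Shorter stretches stood apart in other accessions, in several of them again with C3 low and A03 high. They too were found in the values that describe them. In Ab, Qu and Yu the same 28 expressed C3 genes, from Bo3g005250 to Bo3g006740, were low, with medians of -1.95, -2.17 and -1.87. At the matching place A03 was high, from BraA03g04720R to BraA03g05220R, with medians of 0.73 in Ab, 0.66 in Qu and 0.67 in Yu over stretches that began at ranks 372 to 376 and ended at ranks 405 to 422. A03 took 80.2, 89.4 and 92.4% of the counts there in the 68 libraries of Ab, Qu and Yu, against 30.1, 43.6 and 56.1% in the 11 accessions other than these, Se and St. The stretch lies within those of Se and St, where the medians were 84.7 and 88.8%. Because 5 of 16 accessions were low there, the other 11 lay above the mean of the others, with C3 medians of 0.62 to 1.13, by the construction of the measure.

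In Av, Br and Ze, 56 expressed C3 genes from Bo3g017810 to Bo3g018860 were low, 45, 46 and 42 of them by a log2 of 1 or more. A03 was high from BraA03g11250R to about BraA03g12030R, with medians of 0.59 in Av, 0.79 in Br and 0.73 in Ze. A03 took 87.0, 91.3 and 97.5% of the counts in the 69 libraries of these accessions, against 34.0, 52.1 and 79.9% in the other 13, without overlap. In Ca and Ne the C3 genes from Bo3g018600 to Bo3g019060 were low, partly the same genes. A03 took 90.6, 91.6 and 92.1% of the counts there in Ca and 86.4, 87.8 and 89.0% in Ne, against 37.6, 48.9 and 61.0% in the 11 accessions other than these, Av, Br and Ze. Br and Ze were low again over 18 expressed C3 genes from Bo3g019550 to Bo3g020940, with medians of -1.53 and -1.48. There the A03 share was 41.5, 63.4 and 72.1% in their libraries, against 5.62, 22.7 and 38.0% in the others. In this stretch the sum of both chromosomes was also lower, by a log2 of -0.78 in Br and -0.66 in Ze, unlike in the stretches above.

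Yu showed the opposite direction at the first genes. The 14 expressed A03 genes from BraA03g01030R to BraA03g01220R were lower by a median of -2.63, and the 15 expressed C3 genes from Bo3g001020 to Bo3g001290 were higher by 1.41. A03 took 2.59, 8.90 and 17.3% of the counts in the 23 Yu libraries, against 24.5, 54.0 and 75.9% in the 13 accessions other than Yu, Se and St. Se and St had medians of 90.8 and 90.0% at these genes and did not overlap with Yu either, while the lowest St library (73.8%) lay below the highest of the 13 accessions. The summed level in Yu differed from the others by -0.10, so the low A03 and high C3 counts added up to a similar total. Ab had a low stretch at the other end of A03, 12 expressed genes from BraA03g60880R to BraA03g61300R with a median of -1.23, which has no collinear C3 counterpart. Some stretches were high on 1 chromosome with no low stretch found on the other: BraA03g28650R to BraA03g28770R in Mu (median 0.78) and to BraA03g28790R in Ze (0.55), BraA03g08860R to BraA03g09190R in Ca (0.69), and Bo3g153470 to Bo3g153770 in DH12 (0.89) and DH20 (1.01).

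**Figure D4:**
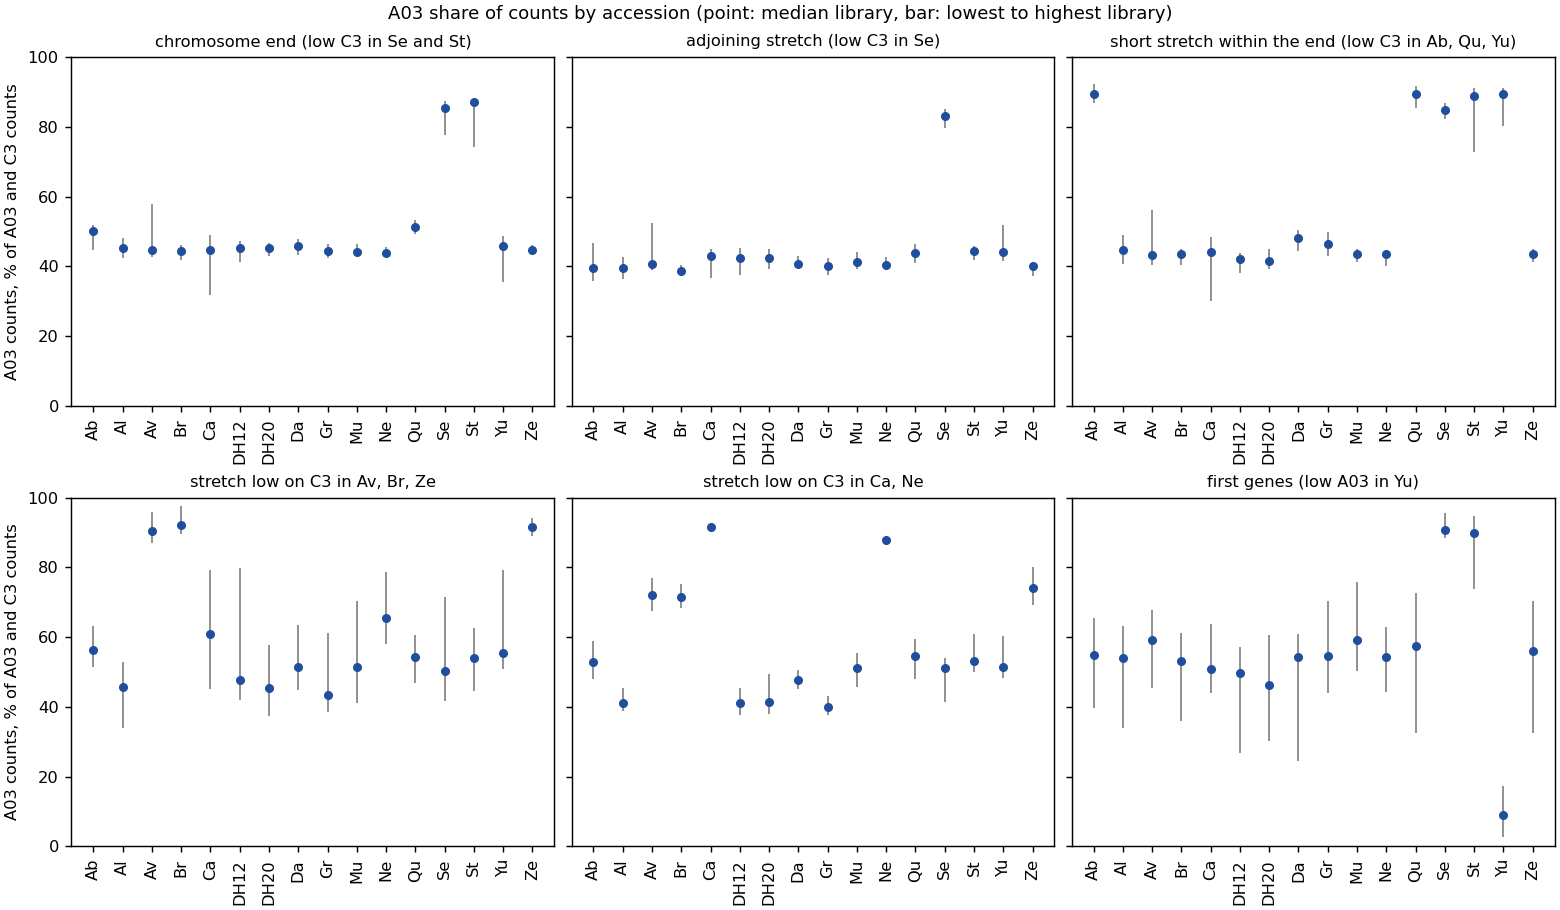
A03 counts as a percentage of A03 and C3 counts in 6 stretches, by accession. Points are the median library and bars reach from the lowest to the highest library. The accessions named above a panel lie above the rest where C3 was low, and Yu lies below the rest in the panel of the first genes. In the panel of Ab, Qu and Yu, Se and St are not named but lie among the named accessions.

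Summed over the collinear part beyond the stretches of Se and St, the balance differed little between accessions. This part still holds the short stretches of Av, Br, Ze, Ca and Ne, and a sum over it can hide local shifts. At bin 65 of the collinear pairs, for example, the balance differed from the mean of the others by 1.43 in Ca and -1.215 in Al. Over the rest of the collinear part, from BraA03g09510R to BraA03g42130R and from Bo3g013840 to Bo3g088580, the median A03 share was 42.6 to 45.4% in all 16 accessions, 43.4% in Se and 43.2% in St. For the whole chromosomes the median share was 43.5% in Se and 42.5% in St, against 38.6% (Gr) to 40.7% (Ab) in the other accessions. The same ratio varied more between accessions for the neighbouring pairs: the A share was lowest in Gr (38.7%) and highest in Se (43.3%) for A03-C3, lowest in DH20 (30.7%) and highest in Gr (53.1%) for A01-C1, and lowest in St (43.3%) and highest in DH20 (70.3%) for A02-C2.

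The WL effect on the balance of the whole chromosomes was small against these differences. The whole chromosomes include the parts past the collinear line, whose genes mostly matched other chromosomes. Averaged over the time points, log2 of A03 over C3 counts was different under WL from WW by a mean of -0.0248 (SD 0.0312, n = 16 accessions), and lower in 13 of 16 (p = 0.00757 in a two-sided sign-flip permutation test, exact). Without the 5 libraries that stood apart, the mean was -0.0322 (SD 0.0205), lower in 16 of 16 (p = 3.05e-05, exact sign-flip permutation test, the smallest p the test can give). The difference rested largely on the genes with the most counts: without the 10 highest genes of each chromosome the mean was -0.00782 (exact permutation p = 0.185), and for the median over expressed genes it was -0.00797 (exact permutation p = 0.23). Over collinear pairs alone it was -0.0167 (exact permutation p = 0.0532).

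Among single accessions, an exact permutation of the WL and WW libraries within time points, adjusted over 16 accessions, called 2. In Ca the balance was -0.589 under WL and -0.512 under WW, a difference of -0.0769 (SE 0.022, adjusted p = 0.0192, exact permutation test). In Ne it was -0.66 under WL and -0.62 under WW, a difference of -0.0391 (SE 0.0091, adjusted p = 0.0048, exact permutation test). Neither passed without the 10 highest genes of each chromosome, and 1 accession was called for the median over expressed genes. With labels permuted within replicate numbers none was called. That permutation leaves so few arrangements that Ne could hardly have passed, so it does not decide the question. In the other 14 accessions the differences ranged from -0.0602 in Da to 0.0347 in Av. The value of Av rests on the library in which most of C3 was low, and without it the difference was -0.0255. Against the neighbouring pairs, the WL effect on A03-C3 was lower than that on A02-C2 by -0.0555 (SD 0.0683, 14 of 16 accessions, adjusted p = 0.0137, exact sign-flip permutation test), while the difference from A01-C1 was -0.0266 (SD 0.0734, adjusted p = 0.17, exact sign-flip permutation test).

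**Figure D5:**
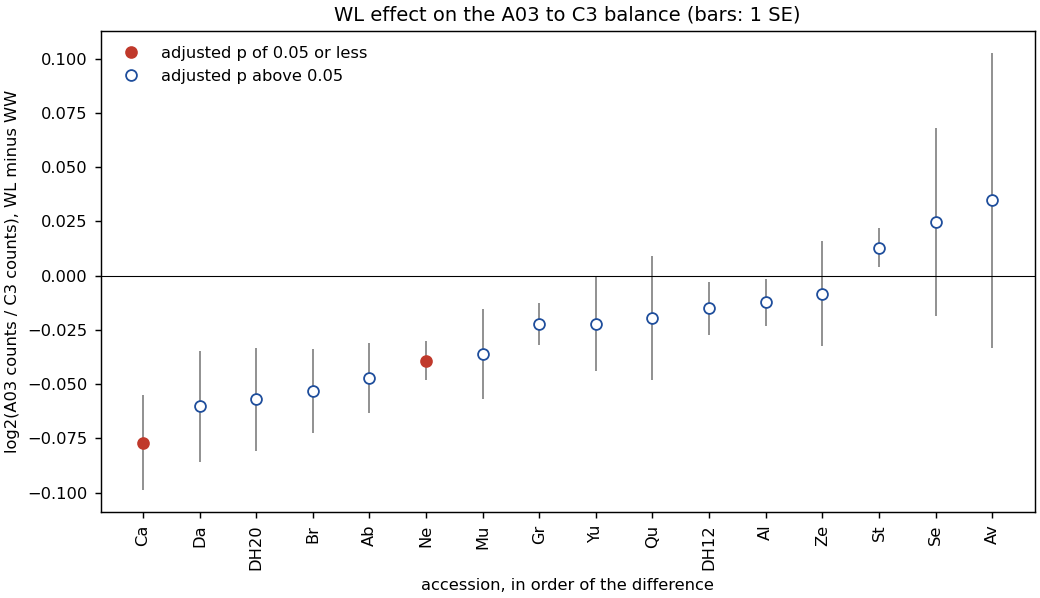
WL minus WW of log2(A03 counts / C3 counts) in each accession, averaged over the 4 time points, in order of the difference. Bars are 1 SE over libraries and filled red points are the 2 accessions with an adjusted p of 0.05 or less, Ca and Ne. 13 of 16 points lie below 0.

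The balance of the whole chromosomes, with the parts past the collinear line, also changed over the day. Under WL, the mean over accessions of log2 of A03 over C3 was -0.664 at ZT1, -0.663 at ZT7, -0.545 at ZT13 and -0.548 at ZT19. Under WW it was -0.617, -0.623, -0.533 and -0.548. The A03 share was thus higher at ZT13 and ZT19 than at ZT1 and ZT7 in both treatments. Under WW, ZT13 was above ZT1 by 0.0843 (SD 0.0576) in 14 of 16 accessions (adjusted p = 0.000366 over 4 comparisons, exact sign-flip permutation test). This change over the day was taken with all libraries only. The libraries that resembled another time point include WW libraries of ZT13. WL was below WW by -0.0472 at ZT1 (13 of 16 accessions, adjusted p = 0.00342, exact sign-flip permutation test) and by -0.0403 at ZT7 (12 of 16, adjusted p = 0.0334). At ZT13 and ZT19 the means were -0.0126 and 0.000676, with adjusted p of 0.375 and 0.98 (exact sign-flip permutation test). Without the 5 libraries that stood apart, the means were -0.0472 at ZT1, -0.0505 at ZT7 (n = 15), -0.0213 at ZT13 and -0.0117 at ZT19, and ZT13 passed the test as well (adjusted p = 0.00309, exact sign-flip permutation test). Without the libraries that resembled another time point, ZT1 remained at -0.0478 (14 of 16 accessions), but ZT7 was at -0.031 (n = 14) and no longer passed (adjusted p = 0.0844, exact sign-flip permutation test).

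Within the stretches that stood apart, no difference between treatments in the accessions concerned passed the test. In 21 comparisons of WL with WW libraries (exact permutation within time points), the smallest adjusted p was 0.296, which does not show that the treatments were alike. Over the first stretch A03 took 84.5% of counts under WL and 85.6% under WW in Se, and 84.3 and 86.6% in St, where the WL mean includes the library that was high on C3. In Yu the share at the first genes was 10.2% under WL and 8.03% under WW.

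The WL effect on the balance was also tested in 8 stretches, and the stretches were not tested against each other. Accessions named above as standing apart in a stretch were left out of its test. Some accessions shifted over only part of a stretch were kept. These were Ca and Ne in the stretch of Av, Br and Ze, and Ab, Qu and Yu in the first stretch. All 16 were kept for the rest of the collinear part, which holds some of the other stretches. At the genes that were low in Av, Br and Ze, log2 of A03 over C3 was higher under WL than under WW by a mean of 0.239 (SD 0.187) in 12 of the 13 other accessions (adjusted p = 0.0039 over 8 stretches, exact sign-flip permutation test). Without the gene of highest level on each chromosome the mean was 0.228, higher in 13 of 13. Among the 13, the effect over all genes of the stretch was largest in Ca (0.615), DH12 (0.532) and Ne (0.431). The rise of BraA03g11460R, described below, falls in this stretch. The mean was 0.147 in the stretch of Br and Ze (SD 0.115, 12 of 14 accessions, adjusted p = 0.0044, exact sign-flip permutation test) and 0.129 at the first genes (SD 0.163, 12 of 13, adjusted p = 0.0254, exact sign-flip permutation test). Neither passed without the highest gene of each chromosome (adjusted p = 0.0741 and 0.103, exact sign-flip permutation test), which for Bo3g020890 was 42.9% of the C3 counts of the stretch of Br and Ze. In the stretch of Ca and Ne the mean was 0.0257 (SD 0.0768, n = 11, adjusted p = 0.513, exact sign-flip permutation test), but without the highest genes it was 0.0722 and higher in 11 of 11 (adjusted p = 0.00391, exact sign-flip permutation test). Over the stretch low in Ab, Qu and Yu and over the one next to the first stretch, the means were -0.0062 and 0.00548 (adjusted p = 0.64 and 0.635, exact sign-flip permutation test). Over the first stretch the mean was 0.0202 (SD 0.0454, n = 14, adjusted p = 0.236, exact sign-flip permutation test) and over the rest of the collinear part -0.00616 (SD 0.0275, n = 16, adjusted p = 0.513, exact sign-flip permutation test).

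By bin, a WL effect shared over accessions (limma on 16 accession values, adjusted p of 0.05 or less) was called in 60 of 121 bins, 27 towards A03 and 33 towards C3, with backgrounds over the bins of the 3 pairs of 24.6% towards A and 24.3% towards C. With collinear pairs it was called in 19 of 82 bins, 7 towards A03 and 12 towards C3 (backgrounds 10.5 and 11.5%). The largest shifts towards A03 were 0.35 at bin 18 (16 of 16 accessions) and 0.31 at bin 52 (14 of 16), and the largest towards C3 were -0.375 at bin 80 (16 of 16) and -0.37 at bin 83 (13 of 16). By relative rank, bins 80 and 83 were set against C3 genes beyond the collinear line, in a block that matched mostly A06. These values depend on which C3 genes are set against a bin: with collinear pairs they were -0.02 at bin 18, 0.09 at bin 52, -0.00143 at bin 80 and 0.16 at bin 83, where the direction was the opposite and also passed the test (limma adjusted p = 0.0234). Within single accessions few windows changed (edgeR, adjusted p of 0.01 or less): 6 of 1936 accession by window pairs on A03 and 5 of 2720 on C3, with a background of 0.325%. These counts were 0 and 1 without replicate 1 and 18 and 31 without replicate 3.

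Many single genes of both chromosomes changed under WL. In the test over 16 accession values (limma, adjusted p of 0.01 or less), 417 of 3209 A03 genes were higher and 667 lower under WL, and 507 and 804 of 3942 C3 genes. The background over all genes tested was 14.6% higher and 18.0% lower, against 13.0 and 20.8% on A03 and 12.9 and 20.4% on C3. Within accessions, edgeR called (adjusted p of 0.01 or less) 286 A03 and 318 C3 changes in all, with a background of 0.457% of all tests. The counts were 34 and 33 without replicate 1, and 2167 and 2507 with DESeq2 at the same threshold. Most were in DH12, where 97 A03 genes were higher and 104 lower and 114 C3 genes were higher and 126 lower. The background over all genes was 5.14% in DH12 and at most 1.09% (Br) elsewhere.

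Of the 592 collinear pairs, both copies were higher under WL in 55 and both lower in 138, and in 0 pairs did the copies change in opposite directions. A single copy was called in 72 pairs, 17 and 26 with A03 higher or lower and 10 and 19 with C3 higher or lower. The balance within the pair was shifted under WL towards A03 in 34 pairs and towards C3 in 31 (limma, adjusted p of 0.01 or less), against a background of 7.29% and 8.01% of the 5940 pairs of all chromosomes. The largest shift towards C3 was in the pair of BraA03g06500R and Bo3g009320, at -0.70 (SD 0.44), lower in 16 of 16 accessions (limma adjusted p = 7.53e-05). Both copies fell under WL, by -1.59 on A03 and -0.89 on C3 (log2 of CPM + 1), so the pair shifted through the larger fall of its A03 copy. The largest shift towards A03 was in BraA03g33690R and Bo3g062370, at 0.50 (SD 0.36), higher in 15 of 16 accessions (limma adjusted p = 0.000211). Neither copy passed the test by itself, at 0.27 and -0.23.

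The largest single changes were in genes of unknown name. Among A03 genes, BraA03g11460R rose most, with accession means of 26.5, 177 and 471 CPM under WL and 4.84, 43.2 and 139 CPM under WW (lowest, median, highest), a mean log2 of 1.54 (SD 0.97), higher in 15 of 16 accessions (limma adjusted p = 3.47e-05). The WL and WW ranges overlapped, since accessions differed in level. BraA03g42000R fell most, with 0.33, 24.1 and 1270 CPM under WL and 9.22, 95.9 and 1100 CPM under WW, a mean of -2.43 (SD 1.09) and lower in 16 of 16 (limma adjusted p = 1.75e-06). On C3, Bo3g181210 rose by 1.02 (SD 0.60, 14 of 16), as did its partner BraA08g03040R on A08 by 1.46, and Bo3g009580 by 0.99 (SD 0.44, 16 of 16). Bo3g055940 fell by 2.09 (SD 1.12) in 16 of 16 accessions, with a median of 10.6 CPM under WL and 68.0 CPM under WW.

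Of the genes with the largest changes, those with a partner among the reciprocal best pairs, which were matched on WW values alone, had a partner that changed in the same direction. BraA03g27140R rose by 0.92 and its collinear partner Bo3g045170 by 0.80, each in 16 of 16 accessions. BraA03g28670R fell by 1.78 and its partner Bo3g052480 by 1.76, each in 16 of 16. For BraA03g50720R, beyond the collinear part, the partner is Bo7g109330 on C7, and the changes were -2.11 and -2.04. The other genes named by the rule were BraA03g06700R and BraA03g15230R, with rises of 1.14 and 1.08, and BraA03g45440R, with a change of -1.68. On C3 they were Bo3g113340 and Bo3g026750, with rises of 0.93 and 0.89, and Bo3g088360, Bo3g052490 and Bo3g184360, with changes of -2.06, -1.88 and -1.83. The genes of highest level on each chromosome, BraA03g20660R on A03 and Bo3g034420 on C3, form a collinear pair, with medians of 1560 CPM under WL and 1100 CPM under WW for the A03 copy and 2850 CPM under WL and 2140 CPM under WW for the C3 copy. Their mean changes of 0.19 and 0.27 did not pass the test (limma adjusted p = 0.119 and 0.0274).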

How the data were processed

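Leaf RNA of 16 accessions was sequenced by the authors, and 354 of the 355 libraries listed have a column in the count tables and were analysed. According to the methods of the study, reads were trimmed (Trimmomatic 0.33), aligned (HISAT2 2.1.0) to the joined genomes of B. rapa R500 and B. oleracea TO1000, and counted per gene with featureCounts for properly paired fragments on the annotated strand. The deposited values are estimated counts per gene, not normalized, because the authors shared a read that mapped to several places between them as fractions. Reads of homoeologous genes that are alike can thus be divided between A03 and C3, and reads of an accession that differ from the reference used can be lost or placed on the other copy. The deposited log2 FPKM tables, which the authors made within each accession with edgeR, were not used. All value columns belonged to a sample (0 did not).

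Counts were rounded for edgeR 4.0.16 (R 4.3.3, with limma 3.58.1) and scaled by TMM factors. Counts were summed over windows of 50 consecutive identifiers. The balance used a pseudocount of 0.5 and single genes used log2 of CPM + 1. Counts in a window were fitted over the groups of all accessions with 1 shared spread, with Benjamini-Hochberg adjustment over the windows of all 19 chromosomes in each accession. WL and WW were compared within an accession as means over the 4 time points, or over accessions with 1 value per accession, so that libraries of an accession are not replicates of the species. In the segmentation that gave the limits of stretches, pieces had at least 8 expressed genes and log2 values were held within 4 on either side of 0.

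The genes and lists were chosen with earlier results of these data known. Genes named by rule were, on each chromosome, the 4 with the largest and the 4 with the smallest mean WL effect among those called, the 2 of highest mean CPM, and, in the 4 longest runs of called windows, the first and last gene and the 3 highest of those that were low or high. Pairs, limits of stretches and genes in them were chosen after their values were seen.

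Calls were tested on simulated data. Alternatives were windows of 25 and 100 genes, medians over genes, RLE factors, WW libraries alone, other denominators and pseudocounts (10 and 0.25), filters, DESeq2 1.42.0, a replicate term, each replicate left out, accessions Qu and Ze left out, and, chosen after seeing the data, collinear pairs alone and the libraries or accessions that stood apart left out.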

Additional observations from a re-analysis of the deposited data

Results flagged for a closer look

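The WL effect on log2 of A03 over C3 counts of the whole chromosomes differed between the first and the last time point of the day. WL minus WW at ZT1 lay below WL minus WW at ZT19 by a mean of -0.0478 (SD 0.0724), and did so in 12 of 16 accessions (p = 0.0128 in an exact sign-flip permutation test, adjusted p = 0.0171 over 4 comparisons). Without the 5 libraries in which a long stretch of A03 or C3 stood apart, 3 of which were ZT19 libraries (of Av, Ca and Da), the difference was -0.0355 (SD 0.0465), in 12 of 16 accessions (exact permutation p = 0.00769). Without the libraries that resembled another time point it was -0.0569 (SD 0.0815), in 12 of 15 accessions (exact permutation p = 0.00989).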

How the results depend on the processing

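The low C3 windows had a share of 1.32 to 1.56% under all 12 alternatives, against 1.32% as reported. With windows of 25 genes, high C3 windows were 4.08% of accession by window pairs, bins shifted towards C3 were 0.674% and C3 windows with a WL effect were 0.386%. With windows of 100 genes, 0% of A03 windows were low, 1.4% of C3 windows were high and 1.15% of bins were shifted towards A03. By the median over expressed genes, high windows were 1.76% on A03 and 1.36% on C3, low A03 windows 0.0517%. With the whole partner chromosome as denominator 0.413% of bins were shifted towards A03, and with the partners of collinear pairs 2.74% were shifted towards A03 and 0.838% towards C3.

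The mean WL effect on the whole-chromosome balance was -0.00797 by the median over genes, -0.00782 without the 10 highest genes of each chromosome and -0.0167 over collinear pairs, none past an exact permutation p of 0.05, and 1 accession passed by the median over genes and 0 without the highest genes. With collinear pairs 23.2% of bins had a shared WL effect. DESeq2 called 2167 A03 and 2507 C3 genes within accessions. Without Qu and Ze, 20 collinear pairs shifted towards C3.

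Replicate numbers did not pair the libraries: libraries of the same number deviated together more than others in 4 of 16 accessions. With labels permuted within replicate numbers, 0 accessions had a WL effect on the balance, but this leaves few arrangements. With a replicate block, 0.155% of A03 and 0.0735% of C3 windows changed, and 189 A03 genes were called. Leaving out each replicate in turn gave 0.103 to 0.207% of bins shifted towards C3, 0 to 0.93% of A03 and 0.0368 to 1.14% of C3 windows with a WL effect, 34 to 237 A03 and 33 to 272 C3 gene calls, and 17 to 24 pairs shifted towards A03 and 17 to 21 towards C3. The lowest gene and window counts were those without replicate 1. Groups held 1 to 3 libraries, which limits the tests within accessions, and the shallowest library had 3216762 counts.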
